A study of Mus musculus with 8 samples.

Results

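The genes described here handle vitamin A and its active derivative, retinoic acid, in mouse embryonic fibroblasts. They are 9 genes named by function (Stra6, Crabp1, Crabp2, Rara, Rarb, Rarg, Aldh1a2, Cyp26b1 and Dhrs3), found by symbol among the 39017 gene identifiers of the deposited count table. All 9 were in the table and all 9 passed the expression filter that kept 18952 genes for testing. The genes were chosen by function, with measured values of these libraries in view: the Stra6 fold changes, between fractions and between genotypes, were known. The values of Stra6 are therefore a description, with no test. The adjusted p-values of the other 8 genes show where each stood among all genes tested and are not independent evidence.

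Retinol travels in blood bound to Rbp4 and enters cells through membrane receptors such as Stra6. Inside the cell retinol is oxidised to retinaldehyde and then, by enzymes such as Aldh1a2, to retinoic acid, which small binding proteins carry to nuclear retinoic acid receptors or to the Cyp26 enzymes that clear it. The receptors act as partners of retinoid X receptors on DNA, and retinoic acid patterns the limb, hindbrain and other mesenchyme-containing tissues of the embryo.

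The cells were E13.5 mouse embryonic fibroblasts. Control cells were compared with Mettl3 knockout cells, whose gene was deleted by a Cre recombinase activated by 48 h in 500 nM 4-hydroxytamoxifen, with depletion of Mettl3 and of N6-methyladenosine (m6A) checked after 7 days. Mettl3 is the catalytic subunit of the enzyme that places m6A on mRNA. The labels do not give the driver of the Cre recombinase, whether control cells received the drug, or which embryos the cultures came from. Total RNA was taken from unstressed cells of each genotype. The granule fraction was taken from cells of each genotype given 500 µM sodium arsenite for 30 min and was enriched for stress granules, the cytoplasmic bodies in which stalled mRNAs gather, by centrifugation. All RNA was selected for poly(A) tails. Each of the 4 combinations of genotype and fraction held 2 biological replicates, 8 libraries in all. Because only granule samples saw arsenite, the effects of stress and of fraction cannot be told apart.

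Total counts per library ranged from 67257220 to 123508539. Levels are library-size-scaled counts (CPM) normalised by the trimmed mean of M-values (TMM). The knockout total replicates stood apart from each other: of 10261 genes averaging 5 CPM or more, 40.1% differed more than 2-fold between them, against 0.127% to 2.33% in the other groups. Their log2 ratio followed the GC content of the transcript (Spearman rho -0.734 across genes, which are not independent replicates), GC-rich transcripts being lower in replicate 1. The control total replicates had a smaller difference in the opposite sense (rho 0.764). Mettl3 stood at 25.4 and 24.9 CPM in control total, 15.7 and 15.4 in control granule, 6.0 and 7.35 in knockout total and 5.56 and 6.38 in knockout granule libraries, so the knockout libraries were all lower than the control ones. Exons of another gene overlap 18.38% of its exonic bases, and reads from exons outside a deleted part would still be counted. All 13 fibroblast markers passed the filter, with summed levels of 6381 to 9821 CPM over the 8 libraries. Of the 7 epithelial markers, Krt18 was the most abundant and the list summed to 364 and 463 CPM in control total, 742 and 891 in control granule, 154 and 184 in knockout total and 600 and 795 in knockout granule libraries. The defining epithelial genes Epcam and Cdh1 did not exceed 1.61 and 2.16 CPM. The endothelial list summed to 6.35 to 20.5 CPM, the blood list to 38.8 to 73.2, the neural list to 5.76 to 40.5, the skeletal muscle list to 0.475 to 2.02 and the hepatocyte list to 0.575 to 1.22. The cardiomyocyte list summed to 2.83 to 3.81 CPM in control and 9.65 to 16.5 CPM in knockout libraries, almost all of it Tnnt2. In bulk RNA, fewer cells of a type and less RNA per cell cannot be told apart.

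Promoter windows from RefSeq (GRCm38.p6, 250 bases before to 50 after an annotated start) were matched by symbol for 8 of the 9 genes, 17 windows in all. Crabp2 had none. Each window was searched on both strands for 5 receptor-binding hexamers (the consensus AGGTCA, the variant GGGTCA, a further variant TGGTCA, the related AGTTCA, together with the related GGTTCA), singly and as direct repeats of any of these with 1, 2 or 5 bases between. A direct repeat contains a pair of the hexamers, so the searches overlap. Single hexamers were in 50.9% of 32851 windows of this length across the genome. Direct repeats were rare, in 0.295% of windows for a spacing of 1, 0.304% for 2 and 0.164% for 5. Of the 17 windows of these genes 6 held a hexamer. Of the 8 genes with a window Rarb alone held a direct repeat. It had 5 bases between the hexamers and lay 53 to 37 bases before the start, and it is shown because this arrangement is the textbook element by which retinoic acid receptors bind the Rarb promoter. The windows of Stra6 and Crabp1 are shown beside it because these genes had the widest ranges between groups. Capitals mark every hexamer or repeat found, on either strand, and each sequence runs 5′ to 3′ on the strand of the gene.
Rarb, chr14:16575427-16575726, minus strand: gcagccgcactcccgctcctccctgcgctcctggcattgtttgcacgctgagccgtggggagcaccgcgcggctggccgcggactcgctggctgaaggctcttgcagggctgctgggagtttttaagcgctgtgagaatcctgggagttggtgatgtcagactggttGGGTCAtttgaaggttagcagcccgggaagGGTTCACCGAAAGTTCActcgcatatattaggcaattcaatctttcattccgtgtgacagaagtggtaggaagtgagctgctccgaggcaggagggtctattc
Stra6, chr9:58128838-58129137, plus strand: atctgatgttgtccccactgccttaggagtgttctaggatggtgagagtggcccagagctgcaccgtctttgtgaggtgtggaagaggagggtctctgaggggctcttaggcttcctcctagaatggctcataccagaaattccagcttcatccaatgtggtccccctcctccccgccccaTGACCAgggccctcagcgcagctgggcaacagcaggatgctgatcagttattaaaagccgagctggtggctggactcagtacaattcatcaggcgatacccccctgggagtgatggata
Crabp1, chr9:54764498-54764797, plus strand: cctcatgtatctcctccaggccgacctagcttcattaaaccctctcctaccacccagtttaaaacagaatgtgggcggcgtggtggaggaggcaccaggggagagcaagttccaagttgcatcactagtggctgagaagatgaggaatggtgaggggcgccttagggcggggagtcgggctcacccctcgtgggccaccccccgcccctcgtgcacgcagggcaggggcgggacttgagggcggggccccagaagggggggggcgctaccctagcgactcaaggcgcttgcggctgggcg
The Stra6 window, the first of 4 annotated starts, held 1 hexamer on the opposite strand, 69 to 64 bases before the start. The Crabp1 window held none. A match is a description of the letters and not a binding site.

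Uptake came first. Stra6 (ENSMUSG00000032327, chromosome 9, 58063788 to 58153996, GRCm38) had the widest range of the 9 genes apart from the barely detected Aldh1a2. Stra6 stood at 33.2 and 20.0 CPM in control total libraries, at 8.31 and 8.20 in control granule, at 1.41 and 2.28 in knockout total and at 44.2 and 32.9 in knockout granule libraries. The knockout total libraries were the lowest and no group other than control total and knockout granule came within 2-fold of another. The control granule to total ratio lay between 0.247 and 0.416 over the 4 pairings of libraries, and the knockout ratio between 14.4 and 31.3. On the log2 scale granule against total was -1.69 (SE 0.37) in control and 4.38 (SE 0.41) in knockout cells, and the difference between these was 6.07 (SE 0.55). Knockout against control was -3.85 (SE 0.40) in total RNA and 2.22 (SE 0.38) in the granule fraction. Leaving out knockout total replicate 1 gave -3.54 in total RNA, and removing each library's trend with GC content gave -3.32. The transcript of Stra6 has a GC content of 56.3%, above 80.6% of 15380 protein-coding genes tested.

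**Figure D1:**
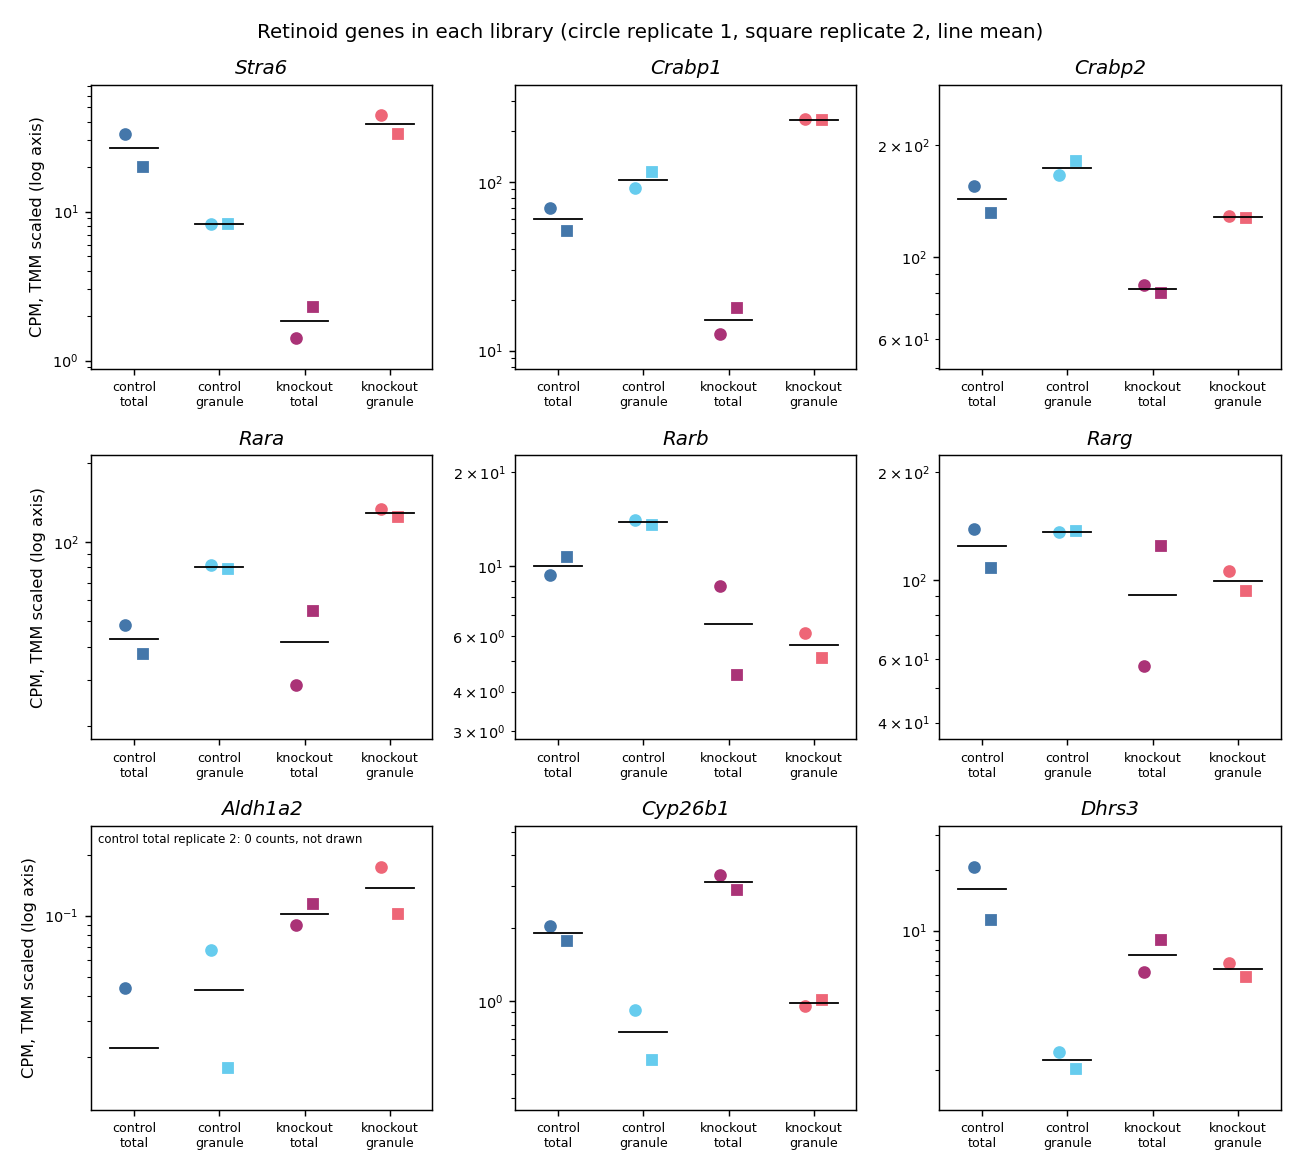
TMM-scaled CPM of the 9 genes in each library (log axis, a scale of its own for each gene), by group, with circles for replicate 1, squares for replicate 2 and lines for the mean. Stra6 is lowest in knockout total (1.41 and 2.28) and highest in knockout granule libraries (44.2 and 32.9), Crabp1 has the same extremes, and Aldh1a2 stays under 0.2 CPM.

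Of the cytosolic binding proteins for retinoic acid, Crabp1 differed strongly between groups and Crabp2 much less. Crabp1 (ENSMUSG00000032291, chromosome 9, 54764748 to 54773110), which retains retinoic acid in the cytoplasm, stood at 69.9 and 51.2 CPM in control total and 91.6 and 115 in control granule libraries. In knockout cells Crabp1 stood at 12.5 and 17.8 CPM in total and 234 and 233 in granule libraries. No library of a group overlapped those of another group. Crabp1 rose by 3.94 on the log2 scale between knockout total and knockout granule (SE 0.33, edgeR adjusted p = 0.0021), and in control cells the same difference was 0.77 (SE 0.29, adjusted p = 0.12). The difference between genotypes in this ratio was 3.17 (SE 0.42, adjusted p = 0.039). Crabp1 fell by 2.0 in knockout against control total RNA (SE 0.30, adjusted p = 0.041) and rose by 1.18 in the granule fraction (SE 0.29, adjusted p = 0.045).

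The larger of these changes, in knockout granules against total, passed the threshold without any 1 library, but not when only its own 4 libraries were fitted (3.87, adjusted p = 0.066). The Crabp1 fall in total RNA did not pass without any 1 of the 4 granule libraries (adjusted p = 0.15 to 0.16) or either control total library (0.48 without replicate 1 and 0.21 without replicate 2), its log2 value staying between -2.15 and -1.76 in these fits. It also did not pass with only its own 4 libraries (-2.02, adjusted p = 0.39), with a replicate block (-2.01, 0.13), with limma-voom (0.17) or with scaling by library size alone (0.059). Its rise in granules did not pass without any 1 of the 4 granule libraries (adjusted p = 0.22 to 0.33) or of the control total libraries (0.071 and 0.073), and the difference between genotypes did not pass without any 1 of these 6 libraries (0.16 to 0.32). The sum of the epithelial list given above was likewise lowest in knockout total libraries, mostly through Krt18 (46.9 and 87.6 CPM there). Krt8 and Cldn4 were also lowest there. In contrast, Krt5 (25 and 12.2 CPM), Krt14 (109 and 51.3 CPM), Epcam and Cdh1 overlapped the control granule libraries. The part of this list in the Crabp1 values was not tested.

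Crabp2 (ENSMUSG00000004885, chromosome 3, 87948666 to 87953376), which delivers retinoic acid to the nuclear receptors, stood at 155 and 131 CPM in control total and 166 and 182 in control granule libraries. In knockout cells it stood at 84.2 and 79.8 CPM in total and 129 and 127 in granule libraries. Its groups did not overlap in any of the 4 pairwise comparisons. The log2 differences were small next to those of Crabp1: 0.28 (SE 0.23) and 0.64 (SE 0.23) for granule against total in control and knockout cells, and -0.80 (SE 0.24) and -0.45 (SE 0.23) for knockout against control in total RNA and granules. None of the 4 passed the threshold in this fit (adjusted p between 0.096 and 0.45). In total RNA DESeq2 gave an adjusted p of 0.024. Without single libraries the edgeR value there ranged from -0.86 to -0.66.

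The 3 retinoic acid receptors, ligand-dependent transcription factors, behaved differently from each other. Rara (ENSMUSG00000037992, chromosome 11, 98927818 to 98974942) stood at 48.2 and 37.6 CPM in control total, 81.6 and 79.2 in control granule, 28.5 and 54.6 in knockout total and 133 and 124 in knockout granule libraries. Both granule groups lay above both total groups. Rara rose by 1.63 on the log2 scale in knockout granules against total (SE 0.34, edgeR adjusted p = 0.019), against a value of 0.91 in control cells (SE 0.34, adjusted p = 0.12). The difference between these was 0.72 (SE 0.48, adjusted p = 0.35). The knockout value was 1.23 without knockout total replicate 1 and 2.05 without replicate 2. It did not pass without control granule replicate 1 or 2 (both 1.56, adjusted p = 0.052), or without knockout granule replicate 1 (1.53, 0.13) or 2 (1.67, 0.12). Knockout against control was -0.05 (SE 0.34) in total RNA, where the groups overlapped, and 0.68 (SE 0.34, adjusted p = 0.23) in granules, where they did not. Its transcript is GC-rich (59.2%, above 92.6% of genes), and the total RNA value was 0.60 after removal of the GC trend.

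Rarb (ENSMUSG00000017491, chromosome 14, 16430839 to 16819156), itself a textbook target of retinoic acid, stood at 9.40 and 10.7 CPM in control total and 14.1 and 13.6 in control granule libraries. In knockout cells Rarb stood at 8.65 and 4.51 CPM in total and 6.13 and 5.13 in granule libraries. The knockout libraries all lay below the lowest control library. Knockout against control was -1.30 in granules (SE 0.35, edgeR adjusted p = 0.057) and -0.61 in total RNA (SE 0.35, adjusted p = 0.30). The granule difference passed the threshold with DESeq2 (adjusted p = 0.0072). Without single libraries its edgeR value ranged from -1.48 to -1.18. Exons of Top2b and of an antisense RNA on the opposite strand cover 38.37% of the exonic bases of Rarb, and whether reads were counted by strand is not given in the sources used here. Top2b, a DNA topoisomerase, stood at 30.5 and 53.5 CPM in control total, 205 and 181 in control granule, 106 and 36.8 in knockout total and 98.1 and 91.6 in knockout granule libraries. Top2b had the same highest group as Rarb and the same order of the knockout total replicates. Knockout against control in total RNA, however, Top2b had a log2 value of 0.76 (SE 0.48), where Rarb had -0.61. By group mean Top2b was lowest in control total and Rarb in knockout granules. The part of shared reads in the Rarb counts was not tested.

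Rarg (ENSMUSG00000001288, chromosome 15, 102234938 to 102257517) was the most even of the receptors. It stood at 139 and 108 CPM in control total, 136 and 137 in control granule, 57.5 and 124 in knockout total and 106 and 93.2 in knockout granule libraries. Total and granule groups overlapped in both genotypes. Knockout against control was -0.45 in each fraction (SE 0.37 and adjusted p = 0.46 in each), and granule against total was 0.14 in each genotype (SE 0.37 and adjusted p = 0.83 in each). Knockout total replicate 1 decided the value in total RNA, which was 0.00 without it and -1.0 without replicate 2. The Rarg transcript is also GC-rich (58.8%, above 91.3% of genes).

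Among the enzymes, the synthetic Aldh1a2 was nearly absent. Of the member enzymes that lower retinoic acid or its precursor, Dhrs3 was lower in granules of control cells and Cyp26b1 in granules of both genotypes. Aldh1a1, a further synthetic enzyme described below, was also lower in granules of both genotypes. Aldh1a2 (ENSMUSG00000013584, chromosome 9, 71215789 to 71296243) had 3 and 0 counts in control total, 7 and 2 in control granule, 10 and 11 in knockout total and 19 and 10 in knockout granule libraries, at most 0.173 CPM. In these libraries 3 counts correspond to between 0.0243 and 0.0446 CPM before TMM scaling. No fold change is given at these counts, and no comparison of Aldh1a2 passed the edgeR threshold (adjusted p between 0.26 and 0.82).

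Cyp26b1 (ENSMUSG00000063415, chromosome 6, 84571414 to 84593908), a hydroxylase that degrades retinoic acid, stood at 2.04 and 1.78 CPM in control total, 0.922 and 0.571 in control granule, 3.31 and 2.89 in knockout total and 0.956 and 1.01 in knockout granule libraries. Every granule library lay below every total library. Cyp26b1 fell by 1.36 on the log2 scale in control granules (SE 0.35, edgeR adjusted p = 0.047) and by 1.66 in knockout granules (SE 0.35, adjusted p = 0.018), and these differed by -0.30 (SE 0.48, adjusted p = 0.71). In control cells the fall did not pass with the GC trend removed (-0.99, adjusted p = 0.12), with a replicate block (-1.38, 0.081), or without any 1 of the 6 control and knockout granule or control total libraries (0.11 to 0.30). In knockout cells it did not pass without either knockout granule library (0.14 in each). Knockout against control was 0.70 in total RNA (SE 0.34, adjusted p = 0.24) and 0.40 in granules (SE 0.35, adjusted p = 0.49).

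Dhrs3 (ENSMUSG00000066026, chromosome 4, 144892827 to 144928209), which reduces retinaldehyde back to retinol, stood at 20.9 and 11.3 CPM in control total and 2.45 and 2.02 in control granule libraries. In knockout cells Dhrs3 stood at 6.16 and 8.92 CPM in total and 6.91 and 5.87 in granule libraries. The control fractions were far apart, whereas the knockout fractions overlapped. Dhrs3 fell by 2.85 on the log2 scale in control granules (SE 0.39, edgeR adjusted p = 0.0099), and in knockout cells the value was -0.24 (SE 0.37, adjusted p = 0.69). The difference between genotypes was 2.61 (SE 0.53, adjusted p = 0.075), and it passed with DESeq2 (adjusted p = 0.00048) and with the GC trend removed (0.021). Knockout against control, Dhrs3 rose by 1.52 in granules (SE 0.38, adjusted p = 0.046) and had a value of -1.10 in total RNA (SE 0.37, adjusted p = 0.16). The fall in control granules did not pass without any 1 of the 4 control libraries (adjusted p = 0.067 to 0.12). The rise in granules did not pass with a replicate block (0.084), without any 1 granule library (0.22 to 0.29) or without either control total library (0.054 in each).

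**Figure D2:**
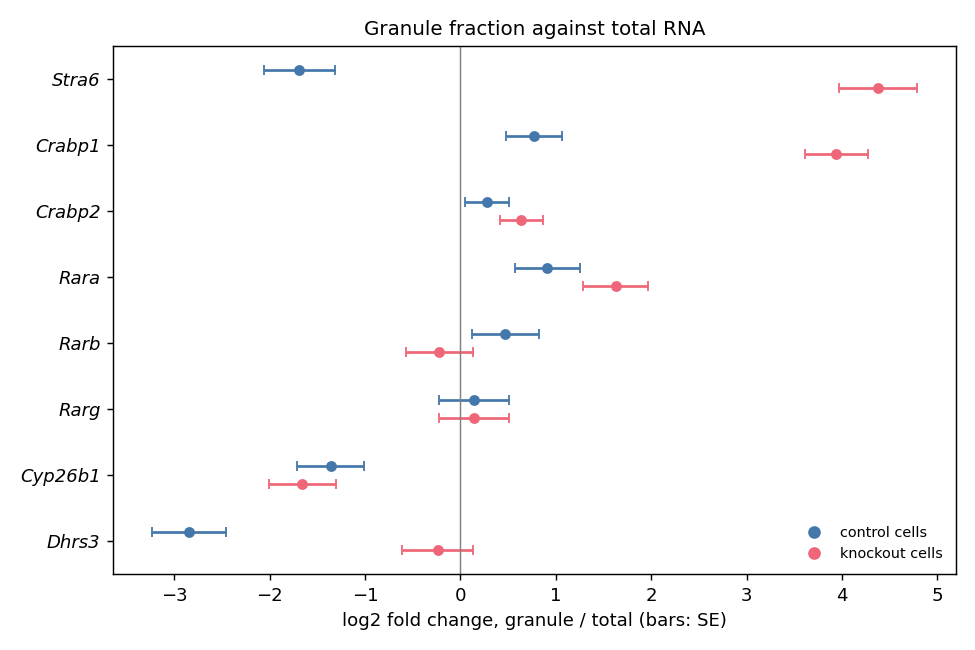
Log2 fold change of granule fraction against total RNA in control (blue) and knockout (red) cells for 8 of the genes, with bars for the standard error; Aldh1a2 is left out for its low counts. Stra6 lies at -1.69 in control and 4.38 in knockout cells, Crabp1 at 0.77 and 3.94, and Dhrs3 at -2.85 and -0.24, while Rarg lies at 0.14 in both.

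Stra6 was left out of the counts, since its differences were known when the genes were chosen. Of the other 8 genes, 2 (Cyp26b1 and Dhrs3) were called lower and 0 higher in control granules against total, where 10.1% of all genes tested were called in either direction, 5.89% higher and 4.17% lower. The libraries of the fractions did not overlap for 4 genes that were higher and 2 that were lower there, and such groups were found for 72.4% of all genes, 35.2% higher and 37.3% lower. In knockout granules 2 genes (Crabp1 and Rara) were called higher and Cyp26b1 lower, against 17.6% of all genes in either direction, 9.17% higher and 8.47% lower. There 3 did not overlap and were higher and 1 was lower, against 58% of all genes, 31.5% higher and 26.5% lower. In knockout against control total RNA Crabp1 was called lower, against 0.412% of all genes in either direction, 0.274% higher and 0.137% lower. The genotypes did not overlap for 2 higher and 4 lower genes in total RNA, against 49.1% of all genes, 24.4% higher and 24.7% lower. In knockout against control granules 2 (Crabp1 and Dhrs3) were called higher, against 9.45% of all genes in either direction, 5.79% higher and 3.66% lower. All 8 had groups that did not overlap in that comparison, 5 higher and 3 lower, where 77% of all genes did not overlap, 40.4% higher and 36.6% lower. The difference between genotypes in the granule to total ratio was called for Crabp1, which was higher, against 0.517% of all genes in either direction, 0.401% higher and 0.116% lower. Because the list was chosen with these results in view, nothing is read from these shares. The median log2 change was taken over all 9 genes, with Stra6 and the barely detected Aldh1a2 included. It was 0.28 in control and 0.43 in knockout granules against total, beside -0.06 and 0.04 over all genes. The value of 0.43 is that of Aldh1a2 itself. Between genotypes the median was -0.61 in total RNA and 0.68 in granules, beside 0.02 and 0.08 over all genes. Because Stra6 enters these medians, nothing is read from them either. The comparisons share libraries with each other, so their values stand side by side and are not independent.

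**Figure D3:**
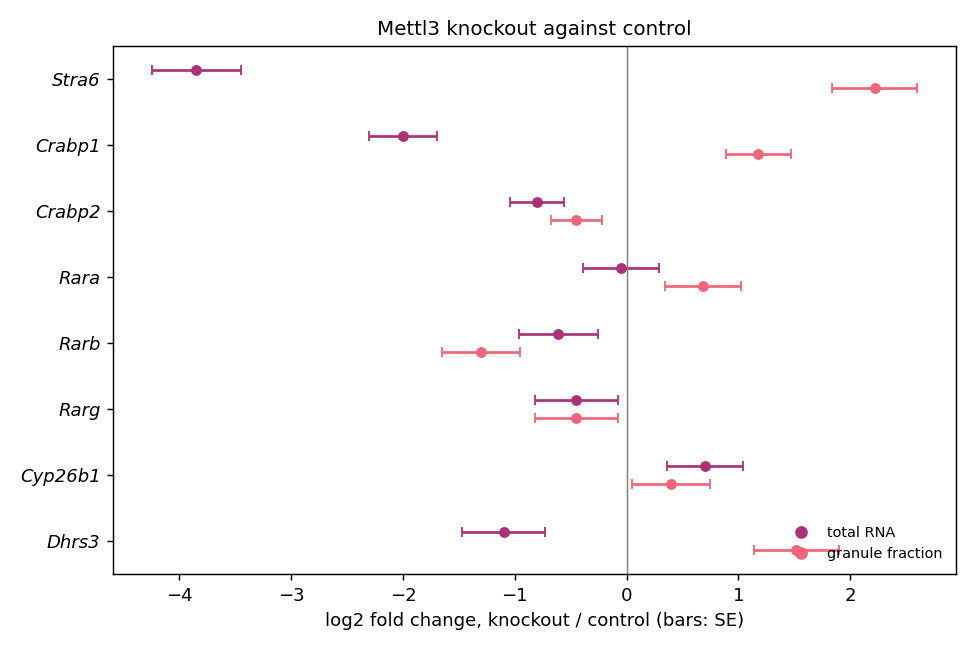
Log2 fold change of Mettl3 knockout against control in total RNA (purple) and in the granule fraction (red) for 8 of the genes, with bars for the standard error; Aldh1a2 is left out for its low counts. Stra6 (-3.85 and 2.22), Crabp1 (-2.00 and 1.18) and Dhrs3 (-1.10 and 1.52) have opposite signs in the fractions, while Crabp2 and Rarb lie below 0 in both.

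Levels can be compared between genes only per length, and were taken as CPM per kb of annotated exon. That length joins the exons of all transcripts of a gene. It is 5829 nt for Stra6 and 5265 nt for Rarb, whose longest coding transcripts have 3077 and 3108 nt, but 802 nt by both measures for Crabp1. The order by transcript length was not taken, and Rarb may hold reads of the overlapping Top2b. In control total RNA the order was Crabp2 (108 ± 12.7, SD, n = 2), Crabp1 (75.5 ± 16.5), Rarg (29 ± 5.21), Rara (9.83 ± 1.71), Dhrs3 (5.51 ± 2.31), Stra6 (4.56 ± 1.6), Rarb (1.91 ± 0.172), Cyp26b1 (0.357 ± 0.035) and Aldh1a2 (0.00975 ± 0.0138). Dhrs3 and Stra6 were neighbours that overlapped, and no other neighbours did. In knockout total RNA Crabp2 was still first at 62 CPM per kb, Crabp1 had dropped to 18.9 and overlapped Rarg at 21.3, and Stra6 had gone below Cyp26b1 (0.317 against 0.579). In knockout granules Crabp1 was first at 291, ahead of Crabp2 at 96.5, and Stra6 stood at 6.61. In control granules Crabp2 (132) and Crabp1 (129) overlapped and Stra6 stood at 1.42. The binding proteins and Rarg thus held the upper ranks in total RNA of both genotypes, and Aldh1a2 was last in every group.

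**Figure D4:**
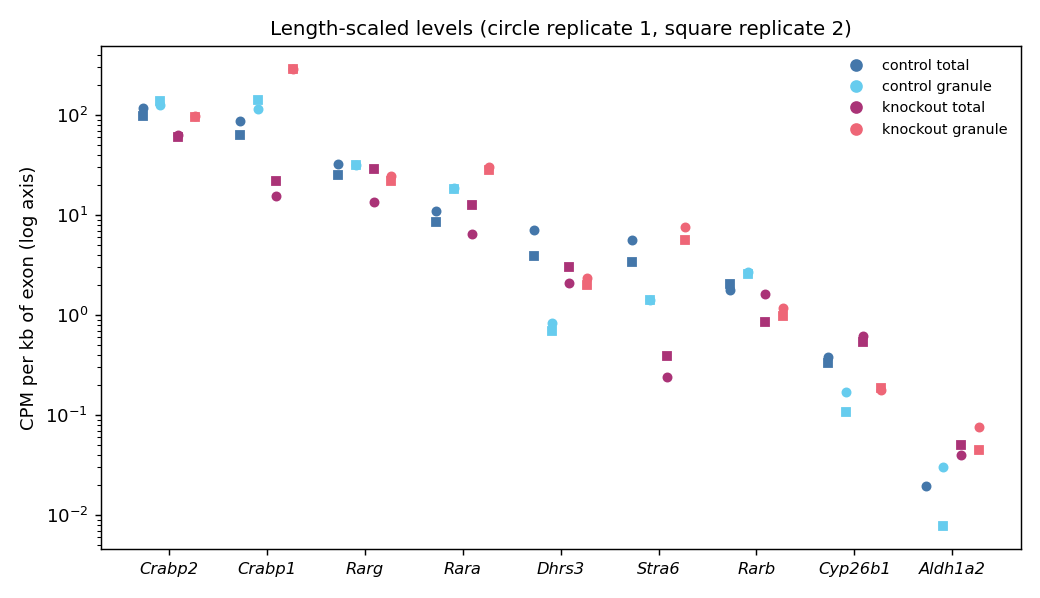
CPM per kb of exon (log axis) of the 9 genes in the 8 libraries, ordered by the mean in control total RNA, with colours for the groups, circles for replicate 1 and squares for replicate 2. Crabp2 and Crabp1 lead in control total RNA (108 and 75.5), Crabp1 reaches 291 in knockout granules, and Aldh1a2 is under 0.1 throughout, with its library of 0 counts not drawn.

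The genes had little in common in transcript structure. The longest coding transcripts ranged from 802 nt (Crabp1, above 3.49% of protein-coding genes tested) to 4495 nt (Cyp26b1, above 74.3%). The strongest changes belonged to transcripts of very different length, since that of Stra6 was 3077 nt, with 19 exons against 4 in Crabp1. The pentamer GGACT, a frequent sequence context of m6A, occurred 6 times in the Stra6 transcript (1.95 per kb, above 87% of genes), 9 times in Rara (2.66 per kb, above 96.1%) and 6 times in Dhrs3 (2.57 per kb, above 95.5%). It occurred 0 times in the 802 nt of Crabp1 and 1 time in Crabp2 (1.07 per kb, above 50.9%). The density was 0.965 per kb in Rarb (above 44.3%) and 0.89 in Cyp26b1 (above 39.7%). In Aldh1a2 it was 0.883 (above 39.2%) and in Rarg 0.677 (above 26.8%). Only the strand of the transcript was searched, no m6A map was used, and no such match shows that a site is methylated. GC content was above the median of protein-coding genes in all but Rarb (47.8%), from 50.6% in Crabp2 and Aldh1a2 to 59.2% in Rara.

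The rest of the pathway was taken as 74 further genes in 3 lists, all of them in the table and 64 of them tested. In the main edgeR fit none was called in knockout against control total RNA, beside 0.412% of all genes. With the GC trend removed edgeR called 3 of the 64, beside 771 of the 18952. Without the filter it called 8 of 74, beside 3407 of 30351. An unadjusted edgeR p under 0.05 was found for 19 of the 64, beside 4705 of all 18952 genes tested. DESeq2 called 8 of the 64, all higher, beside 2506 of the 18952, of which 1843 were higher. In control granules against total 5 were called higher and 7 lower, 18.8% of those tested beside 10.1% of all genes. In knockout granules 4 were called higher and 7 lower, 17.2% beside 17.6% of all genes. In knockout against control granules 7 were called higher and 2 lower, 14.1% beside 9.45% of all genes. These counts moved with the fit, as did those of all genes given below. In control granules 1 (Aldh1a1) of the 64 was called with a replicate block and 35 with only the groups compared. Knockout granules gave 5 and 0, and knockout against control granules 4 and 44. The shares of the 3 lists below come from the main fit alone.

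Of the 33 transport and metabolism genes 27 were tested. In control granules 1 was called higher and 5 lower (22.2%), in knockout granules 1 and 3 (14.8%) and in knockout against control granules 5 and 2 (25.9%), beside the whole-table shares of 10.1%, 17.6% and 9.45%. Aldh1a1, another dehydrogenase that makes retinoic acid, was far more abundant than Aldh1a2. It stood at 40.6 and 38.2 CPM in control total, 6.46 and 6.83 in control granule, 26.4 and 10.1 in knockout total and 1.27 and 1.21 in knockout granule libraries. Aldh1a1 fell by 2.57 in control granules (SE 0.44, edgeR adjusted p = 0.017), by 3.87 in knockout granules (SE 0.47, adjusted p = 0.0037) and by 2.42 in knockout against control granules (SE 0.45, adjusted p = 0.020). Cyp26a1, a relative of Cyp26b1, rose by 2.30 in knockout against control granules (SE 0.52, adjusted p = 0.035), from 0.379 and 0.457 to 2.55 and 1.59 CPM. Rdh10, which oxidises retinol to retinaldehyde, fell by 1.29 in the same comparison (SE 0.25, adjusted p = 0.023), from 54.1 and 52.5 to 23.9 and 19.5 CPM. Dhrs9 fell by 2.86 in knockout granules against total (SE 0.47, adjusted p = 0.0086), from 63.2 and 23.7 to 6.53 and 5.44 CPM. Without either knockout granule library the adjusted p of Aldh1a1 in knockout granules was 0.058 and 0.060 and that of Dhrs9 0.091 and 0.11. Without any 1 granule or control total library Aldh1a1 did not pass in control granules (adjusted p = 0.055 to 0.16) or between genotypes in granules (0.051 to 0.19), nor did Cyp26a1 between genotypes (0.068 to 0.24). Rdh10 did not pass without any 1 granule library (0.15 to 0.24).

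Of the 18 partner receptors and coregulators 17 were tested. In control granules 4 were called higher, 0 lower and 13 were not called (23.5% called), in knockout granules 2 were higher and 2 lower (23.5%), and in knockout against control granules Nr2f1 was called higher (5.88%), beside the same whole-table shares. Their median log2 change in control granules was 0.72, beside -0.06 over all genes. In control granules the corepressor subunit Tbl1xr1 rose by 1.96 (SE 0.36, edgeR adjusted p = 0.021), the acetyltransferase Crebbp by 1.6 (SE 0.36, adjusted p = 0.035) and the acetyltransferase Kat2b by 1.57 (SE 0.39, adjusted p = 0.044). Crebbp also rose by 1.55 in knockout granules (SE 0.36, adjusted p = 0.026). Nr2f1, an orphan receptor that binds similar DNA elements, rose by 2.21 in knockout granules against total (SE 0.26, adjusted p = 0.0034), and by 1.99 in knockout against control granules (SE 0.26, adjusted p = 0.0076). It stood at 5.85 and 5.75 CPM in control total, 11.2 and 12.2 in control granule, 8.96 and 11.1 in knockout total and 46.8 and 46.0 in knockout granule libraries. Without any 1 granule or control total library the control granule values of Tbl1xr1, Crebbp and Kat2b did not pass (adjusted p = 0.064 to 0.26), nor did that of Crebbp in knockout granules (0.052 to 0.19). The value of Nr2f1 in knockout granules passed without any 1 library but not with only its own 4 libraries (2.14, adjusted p = 0.07). Its value between genotypes did not pass without any 1 granule library (0.083 to 0.15).

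Of the 23 genes known to respond to retinoic acid 20 were tested, and none of their called shares was above that of all genes: 0 higher and 2 lower in control granules (10% beside 10.1%), 1 and 2 in knockout granules (15% beside 17.6%), 1 and 0 in knockout against control granules (5% beside 9.45%) and 0 in total RNA (beside 0.412%). Tgm2, a transglutaminase, fell by 1.70 in control granules (SE 0.38, edgeR adjusted p = 0.034), with 21.77% of its exonic bases under other genes. In knockout granules against total Hoxb4, a homeobox factor of the trunk and hindbrain, rose by 1.28 (SE 0.28, adjusted p = 0.020) and its neighbour Hoxb5 fell by 1.38 (SE 0.34, adjusted p = 0.031). Hoxb4 stood at 10.4 and 13.6 CPM in knockout total and 25.9 and 32.3 in knockout granule libraries, and Hoxb5 at 13.6 and 7.59 in total and 3.87 and 4.31 in granule libraries. Hoxb4 did not pass without any 1 granule library (adjusted p = 0.065 to 0.17). Without any 1 granule or control total library Hoxb5 (0.059 to 0.19) and, in control granules, Tgm2 (0.074 to 0.21) did not pass.

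**Figure D5:**
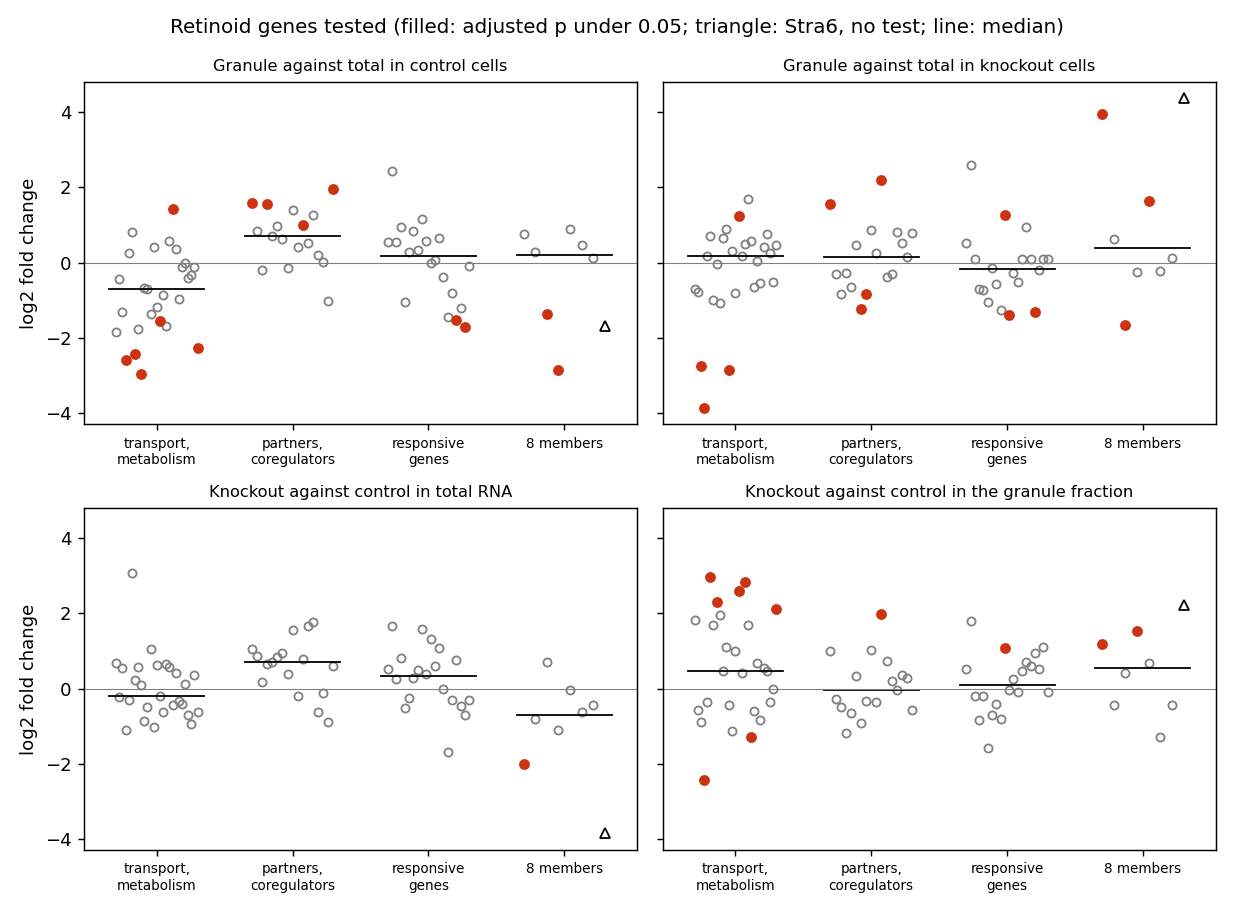
Log2 fold change of each retinoid gene tested, in 4 comparisons (panels), for the 3 further lists and for 8 of the member genes; filled points passed an adjusted p of 0.05, triangles mark Stra6, which is not tested, and lines mark medians. No further gene passed in knockout against control total RNA in this main edgeR fit, and the partner and coregulator median in control granules is 0.72.

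The genes whose log2 CPM followed Stra6 most closely over the 8 libraries, among 10216 genes averaging 5 CPM or more, were Tpd52l1 (Pearson r 0.985), Sorcs2 (0.978), Adgre5 (0.970), Stap2 (0.967) and Olfml2b (0.967). These r values only rank genes, carry no test, and rest on 4 groups of 2 libraries. All 5 were lowest in knockout total and highest in knockout granules, which follows from choosing them by likeness to Stra6. Their ranges were narrower than that of Stra6. The group means of Tpd52l1 were 42.8, 24.2, 10.1 and 52.3 CPM in the total and granule libraries of control and then of knockout cells. Those of Olfml2b were 243, 174, 61.6 and 456 CPM.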

How the data were processed

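Poly(A) RNA sequencing of 8 libraries was deposited by the authors as raw counts per Ensembl gene, 1 column per library, not pooled. Per the submitters' processing notes the tools STAR and DESeq2 and the builds GRCm38 and mm10 were used, with roles and versions not given. The counting program, annotation and strand setting are not given in the sources used here. Columns were joined to samples by genotype, fraction and replicate number. Names, positions, lengths and GC content came from GENCODE M21 (GRCm38), which held 37693 of the 39017 identifiers.

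Counts were fitted in R 4.3.3 with edgeR 4.0.16 (robust quasi-likelihood F-test, TMM scaling, expression filter), with 4 group means over 8 libraries and 4 residual degrees of freedom. The 5 contrasts were taken, with Benjamini-Hochberg adjustment over 18952 genes. Calls are adjusted p under 0.05. Standard errors were derived from the F statistic. The fit was also run on simulated counts with the same spread for all genes and libraries and no trend with GC content. These libraries differ from that setting, so the run does not show how the fit performs on them. Alternatives used DESeq2 1.42.0, limma 3.58.1 (voom with quality weights), other scalings and filters, a replicate block, GC trend removal (lowess, span 0.3), the compared groups alone, and omission of each library in turn. The members and lists were chosen with earlier results of these data known. Always named are the 9 members and Mettl3. From the 3 further lists, up to 3 called genes per direction and contrast with a mean of at least 1 CPM and groups that do not overlap are named, except 1 gene that is not reported here. Genes most like a member are the 5 with the highest Pearson correlation of log2 CPM (prior count 2). P-values measure the spread between these replicates, whose cultures or embryos of origin are not given in the labels. A fit that omits a library leaves 1 in its group, and that group then adds nothing to the spread.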

Additional observations from a re-analysis of the deposited data

Results flagged for a closer look

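Stra6 and Crabp1 drew attention because the granule to total difference was not the same in control and knockout cells. For Stra6 that difference between genotypes was 6.07 on the log2 scale (SE 0.55): every control granule library was below every control total library, and every knockout granule library above every knockout total library. Stra6 was known for this value when the genes were chosen, so it is a description. For Crabp1 the difference was 3.17 (SE 0.42, edgeR adjusted p = 0.039): the ratio was above 1 in both genotypes, between 1.31 and 2.24 in control and between 13.1 and 18.6 in knockout library pairings. The knockout total libraries, which differ from each other with GC content, enter both values. Without knockout total replicate 1 the differences were 5.76 and 2.94, and with the GC trend of each library removed they were 5.38 and 2.36.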

How the results depend on the processing

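Counts of called genes over the whole table moved widely, and comparisons are given in the order granule against total in control cells (1906), the same in knockout cells (3343), knockout against control in total RNA (78), the same in granules (1791), and the difference between genotypes (98). DESeq2 called 4072, 5091, 2506, 3381 and 2746 genes, and voom with quality weights 7448, 1079, 39, 10454 and 742. Without the filter edgeR called 4001, 5161, 3407, 3404 and 3476. With a mean of at least 5 CPM it called 1224, 1744, 813 and 46 in all but total RNA, where 67 stayed within 1.5 times. GC trend removal gave 3818, 6164, 771, 4547 and 1799, the last 2 split into 2164 higher and 2383 lower (1098 and 693 without it) and 649 higher and 1150 lower (76 and 22 without it). Scaling by library size alone gave 37 in total RNA. It also moved the median of all genes from -0.06 to -0.19 in control granules and from 0.09 to 0.28 in the difference between genotypes, where GC trend removal moved it to -0.03. Fits of only the groups compared called 7296, 0 (4400 at an unadjusted p under 0.05), 0 (1871) and 10222. With the replicate number as a block 581, 1898, 0 (3474 at an unadjusted p under 0.05), 670 and 0 (3923) were called. The numbers share no stated origin, and replicate deviations correlated between groups by -0.602 to 0.19. Whether samples of the same number share a culture or embryo is not known. Crossed numbers, chosen after these correlations were seen, gave 2354, 3168 and 112 in the first 3 comparisons. Leaving out 1 library gave 0 to 8133, 236 to 9684, 0 to 9615, 0 to 7798 and 0 to 9381, the highest always without a knockout total library.

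Of 1173 refitted values of named genes, 888 kept direction and call, 205 lost the call, 54 gained it and 26 changed sign. The sign changes were all in genes that were not called. Only values called in the main fit could lose a call, and the 1173 also hold values not called there. The 205 are therefore not a share of the called results. Values of Stra6, given here without a test, are included. Rara in total RNA changed from -0.05 to 0.02 without the filter, to 0.60 with the GC trend removed and ranged from -0.49 to 0.35 without single libraries, and its difference between genotypes from 0.72 to -0.20 with the GC trend removed. Rarg in knockout granules against total went from 0.14 to -0.32 with the GC trend removed, and in total RNA from -0.45 to 0.15. Its difference between genotypes, near 0, was 0.15 with library size alone, 0.07 with voom, 0.19 with a mean of at least 5 CPM and 0.03 with the replicate block. Without single libraries, granule against total in knockout cells ranged from -0.74 to 0.32 for Rarb and from -0.31 to 0.68 for Rarg, Rarg in total RNA from -1.0 to 0.00, and its difference between genotypes from -0.45 to 0.50. Aldh1a2, with at most 19 counts, ranged from -0.11 to 5.17 in control granules, -0.06 to 0.76 in knockout granules and -4.74 to 0.47 in the difference between genotypes. Not every refit that lost a call is named above. Crabp1 lost its call in 8 refits between genotypes in granules and in 7 for the difference between genotypes. In knockout granules against total Rara lost it in 5 and Cyp26b1 in 4. There Aldh1a1 and Dhrs9 did not pass with only their own 4 libraries (edgeR adjusted p = 0.07 and 0.086). Rdh10 between genotypes did not pass with a replicate block (0.06).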

Other observations

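Other members had near neighbours of their own among genes averaging 5 CPM or more, ranked by Pearson r of log2 CPM over the 8 libraries, as a description with no test. Rara was closest to Trim8 (0.992), Ier2 (0.989), Sertad3 (0.989), Ier3 (0.988) and Eepd1 (0.986). Ier2 and Ier3 are immediate-early genes, induced within minutes of a stimulus. The group means of Ier2 were 154, 451, 151 and 721 CPM in the total and granule libraries of control and then of knockout cells, beside 42.9, 80.4, 41.6 and 129 CPM for Rara. Dhrs3 was closest to Atf3 (0.979), a stress-induced transcription factor, whose group means were 257, 109, 189 and 189 CPM, beside 16.1, 2.23, 7.54 and 6.39 CPM for Dhrs3. Cyp26b1 had among its 5 nearest genes Trim14 (0.976), with group means of 9.46, 1.29, 29.8 and 2.98 CPM, beside 1.91, 0.747, 3.10 and 0.981 CPM for Cyp26b1. Crabp1 had among its nearest genes Igfbp6 (0.978), with group means of 7.54, 12.4, 3.16 and 27.8 CPM, beside 60.6, 103, 15.2 and 233 CPM for Crabp1.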
